A study of Saccharomyces cerevisiae with 6 samples.

Results

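The transcripts described here encode 9 nuclear-encoded subunits of respiratory complex III, the cytochrome bc1 complex: the iron-binding subunits CYT1 and RIP1, the core subunits COR1 and QCR2, and the accessory subunits QCR6, QCR7, QCR8, QCR9 and QCR10. Members were chosen by gene symbol. Each of the 9 had 1 probe set annotated to a single gene, and they are 9 of 5449 Saccharomyces cerevisiae genes measured. The cytochrome b gene COB, the remaining iron-binding subunit, is carried by mitochondrial DNA and is not analysed here.

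Cultures of the haploid strain BY4742 in the rich medium YPD received 80 µM clioquinol (CQ), an 8-hydroxyquinoline that binds metal ions, or 1% (v/v) of the solvent dimethyl sulfoxide (DMSO), for 5 h. Each group had 3 biological replicates with 1 Affymetrix array each, 3 CQ arrays and 3 DMSO arrays. The strain lacks LEU2, LYS2 and URA3, and their intensities lay under the background level on all 6 arrays. It descends from S288C, whose HAP1 gene carries a transposon insertion that weakens this heme-responsive activator, and that applies to both groups. Whether the CQ cultures also held the solvent is not stated, and any effect of a difference in solvent cannot be told apart from that of CQ.

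Complex III passes electrons from ubiquinol to cytochrome c and moves protons across the inner mitochondrial membrane. Electrons run through the hemes of cytochrome b, the 2Fe-2S cluster of the Rieske protein (RIP1) and the heme of cytochrome c1 (CYT1), while the other subunits hold no iron. In yeast the nuclear genes of the complex are controlled by glucose, oxygen and heme, through Hap1 and the Hap2/3/4/5 complex.

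Median intensities over all genes were 977 to 1008 on the CQ arrays and 889.7 to 926 on the DMSO arrays. Values are linear intensities per probe set as the authors deposited them, and levels of different probe sets cannot be set against each other. Every difference is CQ minus DMSO on the log2(intensity + 16) scale of the deposited values, and does not give absolute transcript amounts. Arrays were not centred further in the main fit. In these bulk samples a change in fewer cells and a smaller change per cell cannot be told apart. A 3' to 5' index, the mean log2 ratio of 3' over 5' control probe sets of 5 yeast genes other than RIP1, was 1.52, 1.80 and 1.39 on the CQ arrays and 1.18, 1.18 and 1.09 on the DMSO arrays. It is a sign of RNA integrity and labelling and was higher on every CQ array.

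All 9 subunit transcripts were lower with CQ. Each passed limma's test at an adjusted p under 0.05, against a background of 31.9% of all genes called lower, and the groups did not overlap for any of them, as for 73.7% of all genes. In each, every CQ array lay below every DMSO array, which held for 35.1% of all genes. The median difference of the 9 was -0.57, and that of all genes was 0.02. The decreases were unequal: CQ arrays averaged 42.1% of the DMSO mean for RIP1 and 87.4% for QCR8.

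**Figure D1:**
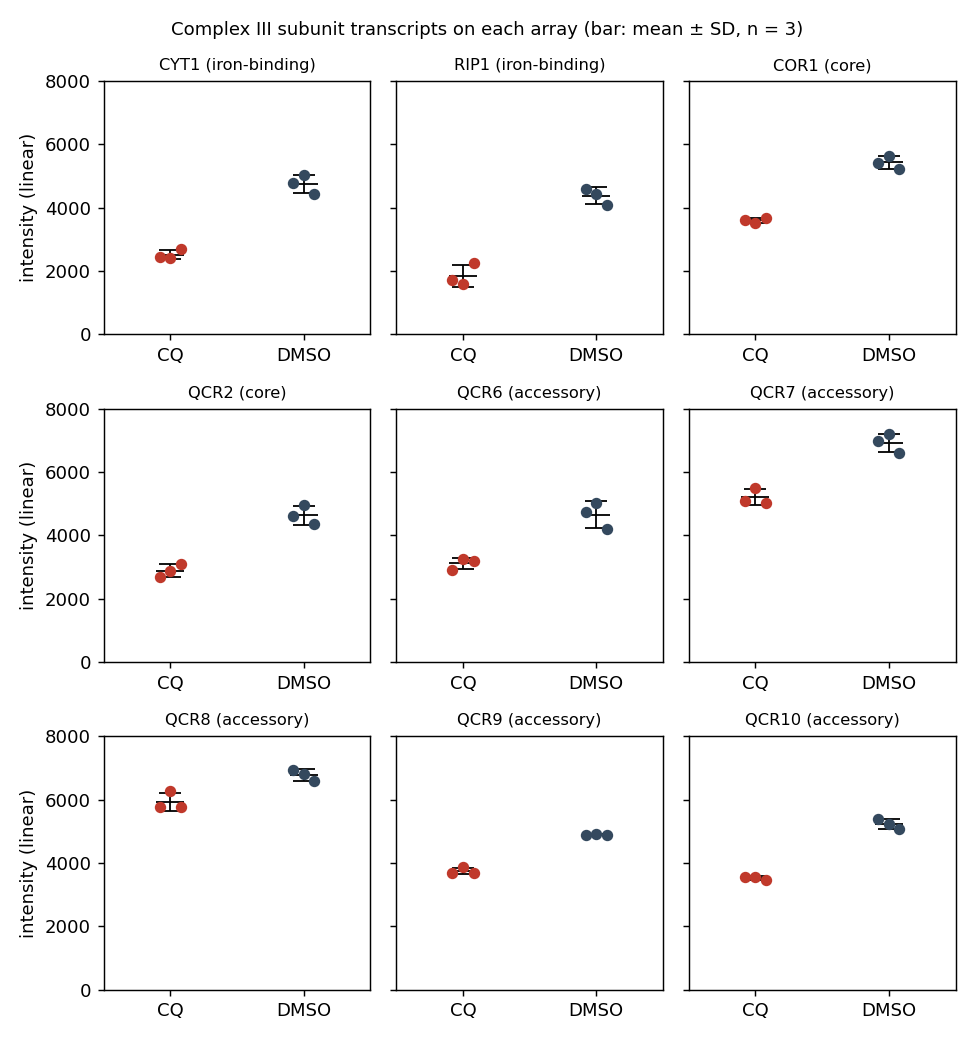
Linear intensity (vertical axis) of the 9 subunit transcripts on the 3 CQ arrays (red) and the 3 DMSO arrays (dark blue), with bars for the mean ± SD. The groups do not overlap in any panel, and the gap is widest for RIP1, at 1844 on average with CQ and 4377 with DMSO.

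RIP1 (YEL024W), the Rieske iron-sulfur protein that takes the first electron from ubiquinol, fell most. Its intensity was 1706, 1581 and 2243 on CQ replicates 1 to 3, against 4607, 4449 and 4074 on DMSO replicates 1 to 3. CQ replicate 3 was the highest of the CQ arrays and still lay well under the lowest DMSO array. The difference was -1.25 ± 0.13 (SE; limma adjusted p = 7.73e-05), and 4.51% of all genes had a lower one. RIP1 was also the member with the widest spread among CQ arrays, with an SD of 0.26 on the log2 scale, against 0.09 on the DMSO arrays.

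The array carries 3 further control probe sets labelled RIP1, for the 5' part, the middle and the 3' part of the transcript, so the decrease could be read at several places. At the 5' part the intensities were 1565, 1445 and 2036 with CQ, against 4093, 4025 and 3801 with DMSO. In the middle they were 1102, 1095 and 1457 with CQ, against 3373, 3300 and 3046 with DMSO. At the 3' part they were 1786, 1614 and 1979 with CQ, against 3624, 3618 and 3318 with DMSO. CQ and DMSO arrays were apart on each of them, with CQ replicate 3 highest and CQ replicate 2 lowest in its group.

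These differences were -1.25 at the 5' part, -1.41 in the middle and -0.97 at the 3' part, next to -1.25 on the gene's own probe set. The ratio of the 3' over the 5' probe set of RIP1 thus moved with treatment as well: it averaged 0.10 with CQ and -0.17 with DMSO on the log2 scale, a shift of 0.28. The same shift was 0.13 for ACT1 and 0.98 for SRB4, the smallest and largest of the 5 index genes. The smallest of the 4, at the 3' part, was close to the difference of CYT1 given next.

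**Figure D2:**
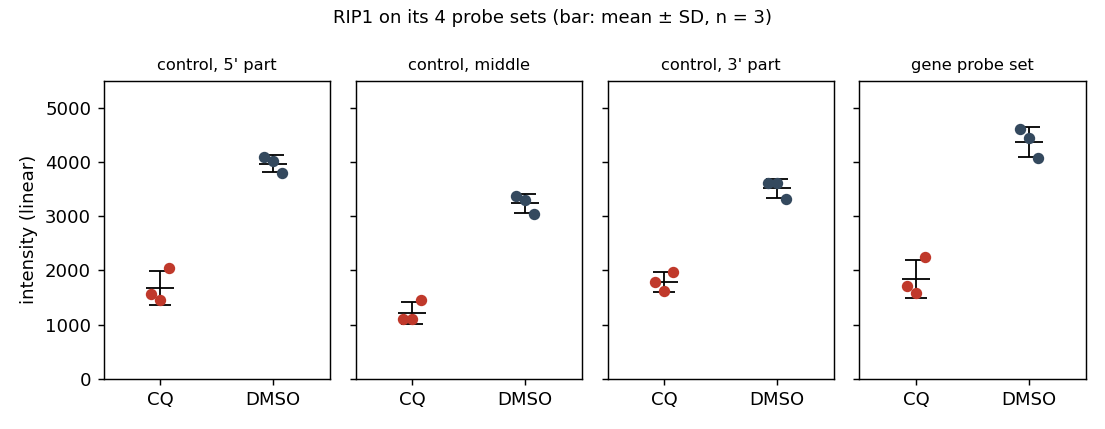
Linear intensity of RIP1 on the 5', middle and 3' control probe sets and on the gene's own probe set, for the 3 CQ arrays (red) and 3 DMSO arrays (dark blue), with the mean ± SD. On each probe set the CQ arrays lie below the DMSO arrays, with differences between -1.41 and -0.97 on the log2 scale.

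CYT1 (YOR065W) encodes cytochrome c1, which holds a covalently bound heme and hands the electron to cytochrome c. Intensities were 2451, 2415 and 2696 with CQ, against 4767, 5037 and 4444 with DMSO, with no overlap and little spread in either group. CYT1 fell by 0.91 ± 0.08 on the log2 scale (SE; limma adjusted p = 3.79e-05), to 53.1% of its DMSO mean.

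The core subunits face the matrix and are related to subunits of the mitochondrial processing peptidase. QCR2 (YPR191W) read 2694, 2873 and 3090 with CQ, against 4608, 4955 and 4357 with DMSO. COR1 (YBL045C) read 3622, 3527 and 3685 with CQ, against 5426, 5636 and 5239 with DMSO. Both had groups well apart. QCR2 differed by -0.68 ± 0.09 (adjusted p = 0.000213) and COR1 by -0.59 ± 0.07 (adjusted p = 0.000162; SE and limma for both), and the gap between them was 0.10 with a combined SE of 0.11.

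The 5 accessory subunits, small proteins around the catalytic core, had differences from -0.57 to -0.19. The largest decreases among them could not be told from that of COR1, with a step of 0.01 and a combined SE of 0.12 between COR1 and QCR6. QCR6 (YFR033C), the acidic hinge protein near the cytochrome c side, read 2907, 3243 and 3194 with CQ, against 4724, 5031 and 4190 with DMSO. QCR10 (YHR001W-A) read 3554, 3545 and 3451 with CQ, against 5387, 5233 and 5063 with DMSO. Both fell by 0.57 on the log2 scale, QCR6 with a wider spread than QCR10 on the DMSO arrays, at log2 SDs of 0.13 and 0.04.

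QCR7 (YDR529C), a matrix-side subunit that binds cytochrome b early in assembly, read 5099, 5490 and 5030 with CQ, against 6965, 7188 and 6607 with DMSO. QCR9 (YGR183C), a membrane subunit, read 3679, 3872 and 3692 with CQ, against 4880, 4922 and 4882 with DMSO. Again the groups did not overlap, and CQ means were 75.2% of the DMSO mean for QCR7 and 76.6% for QCR9. The differences were -0.41 ± 0.08 for QCR7 and -0.38 ± 0.07 for QCR9 (SE; limma adjusted p = 0.00172 and 0.00137).

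QCR8 (YJL166W), which joins cytochrome b together with QCR7, changed least. Its arrays read 5755, 6269 and 5752 with CQ, against 6942, 6809 and 6576 with DMSO, so that CQ replicate 2 came close to the lowest DMSO array. The difference was -0.19 ± 0.07 (SE; limma adjusted p = 0.0467), and this call was the least secure of the 9. QCR8 no longer passed when CQ replicate 1 or 3 or any single DMSO array was left out (differences of -0.22 to -0.17, adjusted p from 0.0842 to 0.133), and its difference was -0.08 (adjusted p = 0.361) after quantile normalization. It was -0.11 with the gene-length trend removed and -0.33 with arrays centred on their median.

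**Figure D3:**
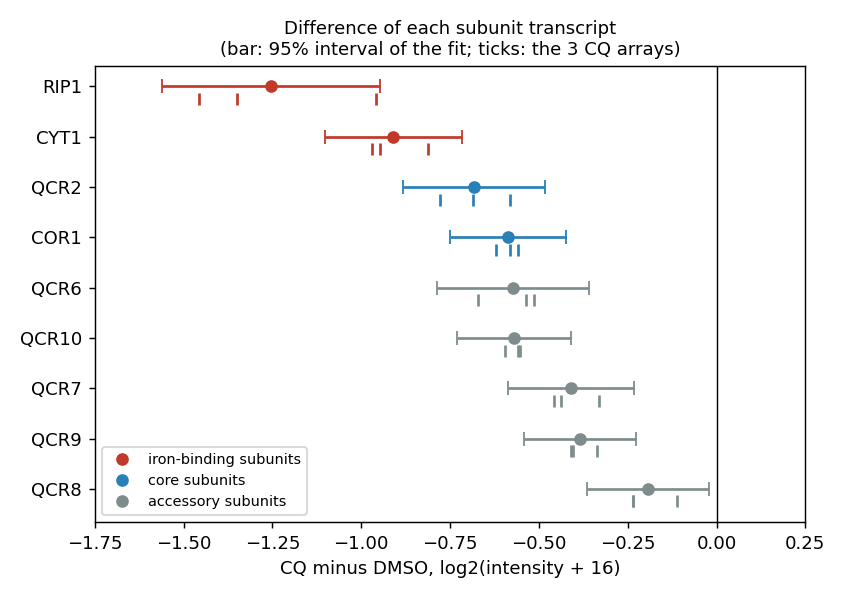
CQ minus DMSO difference of each subunit transcript on the log2(intensity + 16) scale, with 95% intervals of the limma fit and ticks for the 3 CQ arrays relative to the DMSO mean. The iron-binding RIP1 (-1.25) and CYT1 (-0.91) lie farthest from 0 and QCR8 (-0.19) closest.

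The order of the subunits was the same at its ends on all 3 CQ arrays: RIP1 was lowest relative to its DMSO mean, CYT1 next and QCR8 highest. The step between RIP1 and CYT1 was 0.34 with a combined SE of 0.16, and the step between CYT1 and QCR2 was 0.23 with a combined SE of 0.12. Between these ends QCR2, COR1, QCR6 and QCR10 spanned -0.68 to -0.57, each step being smaller than its combined SE, and members of this middle group traded places between arrays. QCR7 and QCR9 could not be ordered either, with a step of 0.03.

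Set against the other 7 subunits, the iron-binding pair was lower by a further 0.60. The pair's mean minus the mean of the others, relative to DMSO, was -0.62, -0.76 and -0.40 on the CQ arrays, against 0.03, 0.01 and -0.03 on the DMSO arrays. Most of the spread came from RIP1, whose excess over the 7 ran from -1.01 to -0.48, whereas that of CYT1 ran from -0.52 to -0.33. As a score over chosen genes this contrast was given no test.

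Among the CQ arrays the contrast moved with the 3' to 5' index. CQ replicate 2 had the highest index (1.80) and the largest contrast (-0.76), and CQ replicate 3 the lowest index of its group (1.39) and the smallest contrast (-0.40). Within the DMSO arrays the direction was the opposite: replicate 3 had the lowest index (1.09) and the most negative contrast (-0.03). With the index as a covariate the contrast was -0.29, with RIP1 at -0.87 ± 0.20, CYT1 at -0.81 ± 0.15, QCR6 at -0.68 ± 0.17 and QCR2 at -0.65 ± 0.16. Each step from one of these to the next was smaller than either SE. Neighbours, such as the accessory QCR6 and the core QCR2, could therefore not be ordered in that fit. All 9 members still passed (limma adjusted p up to 0.0448). The index did not overlap between groups, so it and the treatment can hardly be told apart in 6 arrays, and its part in the contrast was not tested.

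Among the members, higher brightness went along with a smaller decrease. QCR7 and QCR8 were the brightest members, at 47.6% and 46.6% of the array maximum with DMSO, and the other 7 lay between 30.1% and 37.3%. Over the 9 members the difference correlated with the DMSO log2 intensity at Pearson r = 0.72 and with the log2 gene length at r = -0.51, across genes read on the same 6 arrays. Over all 5446 protein-coding genes the relation to length had the opposite sign, at r = 0.16. Other genes as bright as the members were lower with CQ more often than genes in general. Opposite to the members, the brighter of the ranges compared had the lower median. Near QCR7 and QCR8, with DMSO means between 6437 and 7266, 61.4% of 57 other genes were called lower and their median was -0.40, next to which QCR7 stood at -0.41 and QCR8 at -0.19. Between 4377 and 5433, the range of the dimmer members, 49.2% of 181 other genes were called lower and their median was -0.21, next to which the 7 members ran from -1.25 to -0.38. The part of brightness and length in the size of the decreases was not tested.

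**Figure D4:**
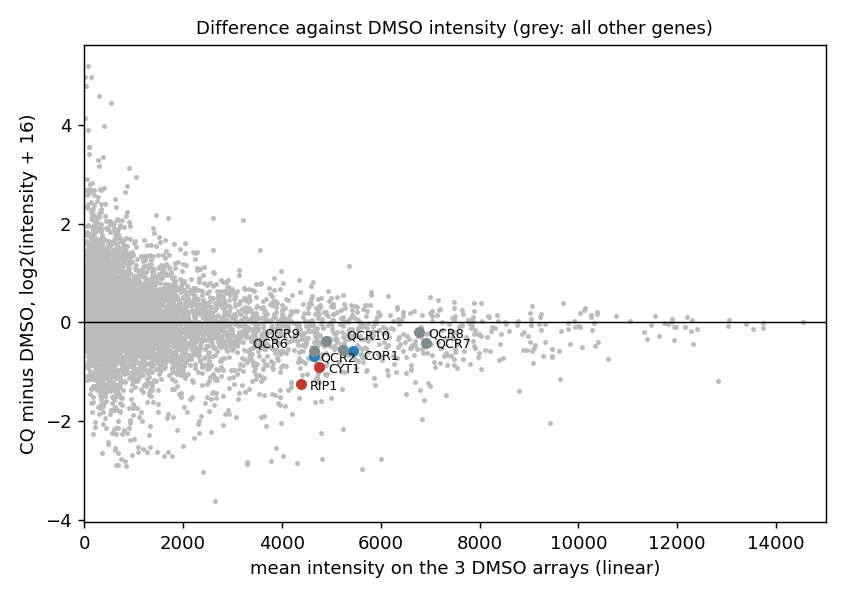
CQ minus DMSO difference (vertical axis, log2 scale) against the mean linear intensity on the DMSO arrays (horizontal axis) for the iron-binding (red), core (blue) and accessory (dark grey) subunits and all other genes (light grey). The 9 subunits lie between 4377 and 6920 and below 0, and other genes of that brightness lie on both sides of 0 with medians of -0.21 and -0.40 in the 2 ranges compared.

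Of 14 genes listed as electron donors and acceptors of complex III, 9 fell (31.9% of all genes were called lower). Another 4 rose (36.1% of all genes were called higher) and 1 did not pass, with a median of -0.79 over the list. The list is broader than its name: CYB2, DLD1 and CCP1 exchange electrons with cytochrome c, and CYC3 is the cytochrome c heme lyase. CYC3 was among those that rose (0.44), CYB2 fell (-1.12) and DLD1 did not pass (-0.08), all 3 named after their values were seen. On the acceptor side, the cytochrome c gene CYC1 had the largest decrease. It read 124, 156 and 126 with CQ, against 937, 1217 and 769 with DMSO (-2.69 ± 0.16, SE). CCP1, the peroxidase that draws electrons from cytochrome c, read 1890, 2606 and 2461 with CQ, against 6892, 6917 and 6795 with DMSO (-1.57 ± 0.12). The groups were far apart for both genes. CYC7, the other cytochrome c gene of the list, was named after its value was seen and stood at -1.23 ± 0.12 (SE).

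The largest rises of the list were in NDE2 and GUT2, flavoproteins that feed electrons to ubiquinone. NDE2, an external NADH dehydrogenase, read 4886, 4741 and 4968 with CQ, against 2127, 2208 and 2494 with DMSO, and rose by 1.09 ± 0.08. GUT2, the glycerol-3-phosphate dehydrogenase, read 6350, 5521 and 6882 with CQ, against 3246, 3869 and 3591 with DMSO, and rose by 0.80 ± 0.11 (SE; limma adjusted p = 1.53e-05 for NDE2 and 0.000279 for GUT2). NDI1, the internal NADH dehydrogenase and likewise a flavoprotein that feeds ubiquinone, fell by 0.79 on the log2 scale (limma adjusted p = 0.000463). It falls outside the naming rule, as do the complex II genes, and all were named after their values were seen. In complex II all 4 subunits fell (limma adjusted p up to 0.00182), against 31.9% of all genes called lower. The flavoprotein SDH1 stood at -0.97, the iron-sulfur protein SDH2 at -0.79 and the membrane anchors SDH3 and SDH4 at -0.90 and -0.37.

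Of 9 nuclear subunits of cytochrome oxidase, which takes electrons from cytochrome c, 8 fell and 1 did not pass, with a median of -0.53, against 31.9% of all genes called lower. COX6 read 1669, 1801 and 1813 with CQ, against 4115, 4390 and 4019 with DMSO (-1.24 ± 0.08), and COX5A read 2337, 2342 and 2428 with CQ, against 4819, 5299 and 4595 with DMSO (-1.04 ± 0.08; SE for both). Neither protein binds iron, and their decreases were of the size of those of RIP1 and CYT1. The hypoxic alternative to COX5A, COX5B, which was named after its value was seen, stood at 0.16 and did not pass (limma adjusted p = 0.0989).

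Of 14 subunits of ATP synthase, which uses the proton gradient and contains no iron, 4 fell, 1 rose and 9 did not pass, with a median of -0.17. The share that fell is near the 31.9% of all genes called lower, and the share that rose is under the 36.1% of all genes called higher. Differences were negative for 12 of the 14, and for 2620 of all 5449 genes. ATP14 and ATP5 had the largest decreases, at -0.46 ± 0.09 and -0.45 ± 0.08, and ATP4 was the member that rose, at 0.22 ± 0.08 (SE; limma adjusted p = 0.0396). ATP4 did not pass with arrays centred on their median (0.08) or 75th percentile (0.16), nor without CQ replicate 1 or any single DMSO array (0.16 to 0.25). With the index as a covariate none of the 3 passed (-0.32 for ATP14, -0.40 for ATP5 and 0.15 for ATP4). The difference between these lists and complex III was not tested.

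**Figure D5:**
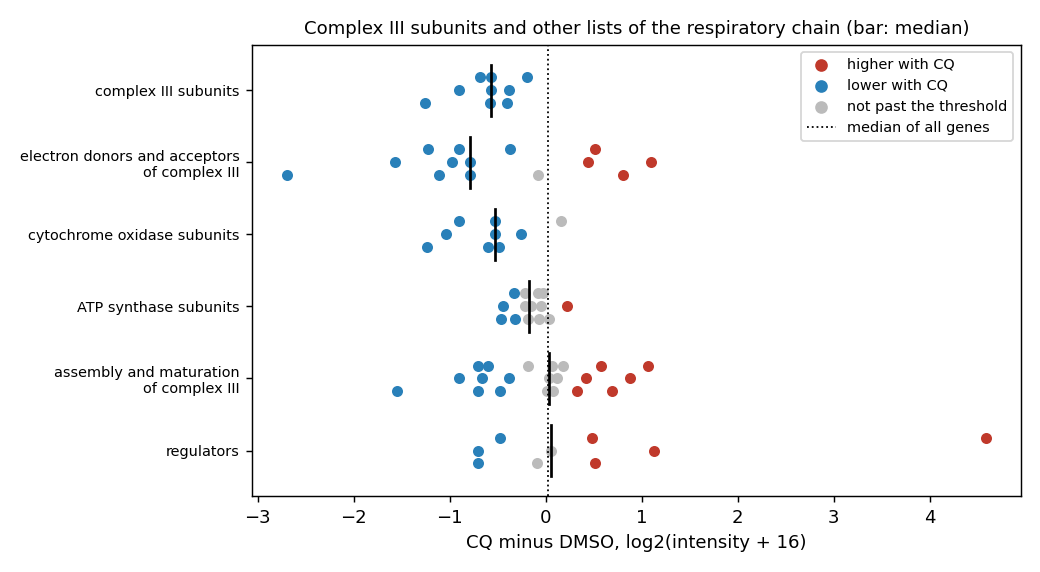
CQ minus DMSO differences (horizontal axis, log2 scale) of the complex III subunits and of 5 other lists, 1 point per gene, red for higher, blue for lower and grey for not past the threshold, with a bar at each median. The medians are -0.57 for complex III, -0.79 for the list of donors and acceptors, -0.53 for cytochrome oxidase, -0.17 for ATP synthase and close to 0 for assembly factors and regulators.

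Of 21 assembly, processing and cytochrome b expression factors, 8 fell, 6 rose and 7 did not pass, with a median of 0.03. These shares are near those of all genes, 31.9% lower and 36.1% higher. The largest rises were in 2 factors that complete the iron-binding subunits. BCS1, the ATPase that brings the folded Rieske protein across the inner membrane into the complex, read 1046, 1493 and 1027 with CQ, against 572, 545 and 540 with DMSO. CYT2, the lyase that attaches heme to cytochrome c1, read 942, 1044 and 1061 with CQ, against 582, 522 and 535 with DMSO.

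BCS1 rose by 1.06 ± 0.14 and CYT2 by 0.88 ± 0.08 (SE; limma adjusted p = 0.00028 and 4.31e-05), while RIP1 and CYT1 fell. With the index as a covariate BCS1 was at 0.50 and CYT2 at 0.85, both past the threshold. The largest decreases were in MRS1, needed to splice an intron of the cytochrome b transcript, and CBP6, a partner of newly made cytochrome b. MRS1 read 347, 308 and 280 with CQ, against 1044, 900 and 885 with DMSO (-1.55 ± 0.10), and CBP6 read 770, 1039 and 815 with CQ, against 1591, 1654 and 1658 with DMSO (-0.90 ± 0.11).

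Of 9 regulators of respiratory genes, 3 fell, 4 rose and 2 did not pass, again near the shares of all genes (31.9% lower and 36.1% higher). HAP4, the activating and glucose-controlled subunit of the Hap2/3/4/5 complex, read 2849, 2418 and 2743 with CQ, against 3634, 3769 and 3760 with DMSO. It fell by 0.48 ± 0.08 on the log2 scale (SE; limma adjusted p = 0.00128) but did not pass with the index as a covariate (-0.27, adjusted p = 0.111). Among its DNA-binding partners HAP2 fell (-0.71 ± 0.09), HAP3 rose (0.51 ± 0.13, and 0.30 and not past the threshold with the index as a covariate), and HAP5 did not pass (-0.10; limma adjusted p = 0.337), though it did after quantile normalization (-0.22) and with arrays centred on their median (-0.23).

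HAP1 read 2955, 2151 and 2814 with CQ, against 1343, 1122 and 1127 with DMSO, and rose by 1.12 ± 0.13, or 0.50 with the gene-length trend removed. The hypoxic repressor gene ROX1 fell (-0.71 ± 0.11) and its co-repressor gene MOT3 rose (0.48 ± 0.11; SE for both; 0.73 with the index as a covariate). TIS11, whose product binds AU-rich elements and speeds the decay of transcripts of iron-using proteins when iron is low, read 7508, 7503 and 8190 with CQ, against 331, 285 and 309 with DMSO. Its relative CTH1 stood at 0.05 and did not pass.

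Across the 6 arrays, the genes whose values relative to DMSO lay nearest to the mean of RIP1 and CYT1 were FAA3, a long-chain acyl-CoA synthetase, IRC7, a beta-lyase, and RAD52, a recombination protein, at root mean square distances of 0.075, 0.076 and 0.078 on the log2 scale. Nearest to the mean of the other 7 subunits were SMX3, a spliceosomal Sm protein, XDJ1, a DnaJ-type chaperone, and the nucleoporin gene NUP49, at distances of 0.026, 0.041 and 0.046. With 2 groups of 3 arrays, these distances mostly reflect the size of the difference between groups.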

How the data were processed

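Biotin-labelled cRNA of 6 yeast cultures was hybridised to Affymetrix arrays, per the labels' protocols. The authors deposited linear intensities, summarised per probe set; with which software, and whether arrays were scaled, is not given in the sources used here. Of 10928 probe sets, 5498 were paired with 1 S. cerevisiae gene by GEO's platform annotation, with symbols updated through RefSeq's R64 gene table, and the brightest probe set per gene left 5449 genes. A probe set counted as above background over the 95th percentile of 1746 fission yeast probe sets.

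Differences in log2(intensity + 16) were tested two-sided in R 4.3.3 by limma 3.58.1's lmFit and eBayes, with Benjamini-Hochberg adjustment over 5449 genes and a threshold of 0.05. The procedure was tried on simulated data in which far fewer genes changed than were called here. Values after ± are standard errors of the fit. The number of arrays limits the precision. Alternatives changed the normalization, centring, filter, pseudocount and variance model, left out single arrays, or added a replicate block or the 3' to 5' index. The gene-length trend was a lowess curve (statsmodels 0.14.6), and plots used matplotlib 3.10.9.

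Members and lists were chosen with earlier results of these data known. Named were all members, all regulators, and from each other list the 2 called genes with the largest change in each direction. Motif and protein sequence searches were not run.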

Additional observations from a re-analysis of the deposited data

How the results depend on the processing

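The fit was repeated under 19 alternatives. The count of 9 members lower with CQ was 8 where QCR8 alone was lost and 9 otherwise; the other 8 members passed in each tested alternative. The median difference of the members, -0.57, was -0.53 with quantile normalization, -0.71 and -0.63 with arrays centred on the median and the 75th percentile, -0.62 with the 3' to 5' index in the model and -0.48 with the gene-length trend removed, and it ran from -0.61 to -0.56 with single arrays left out. Centring on the median placed the median of all genes at -0.11, with 2211 genes lower and 1578 higher, against 1739 and 1969. The contrast of the iron-binding pair with the other subunits, -0.60, was -0.29 with the index as a covariate and -0.69 to -0.51 with single arrays left out; the cause was not tested. With the dimmest 40% of genes left out, 1083 genes were lower and 1184 higher, since fewer genes were tested. Same-numbered CQ and DMSO arrays correlated at 0.05, 0.12 and 0.14 in their deviations from the group means, each best with its own number, which is a hint from the data and not part of the design. With the replicate number as a block 8 members passed and QCR8, at -0.19, did not (adjusted p = 0.0758); ATP4 was lost too (adjusted p = 0.0506). The replicates are cultures of 1 strain, and 3 arrays a group limit the precision.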

Other observations

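The mitochondrial processing peptidase, which removes import signals from many mitochondrial precursors, is built from MAS1 and MAS2, relatives of the core subunits COR1 and QCR2. Both genes were picked after their values were seen. MAS2 read 1251, 949.5 and 1303 with CQ, against 1911, 1877 and 1905 with DMSO, and fell by 0.71 ± 0.12 on the log2 scale (SE; limma adjusted p = 0.00111), close to the 0.68 by which QCR2 fell. MAS1 stood at 0.08 and did not pass (adjusted p = 0.336), whereas COR1 fell.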
